A study of Arabidopsis thaliana with 6 samples.

Results

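The plastid chromosome of *Arabidopsis thaliana* was examined for its response to a bacterial protease, gene by gene and complex by complex. Its genes were taken from RefSeq as those on the plastid chromosome, and a gene counted as measured where an array probe set was annotated to it alone. This gave 69 genes, all protein-coding, of 13356 genes measured in all. RefSeq lists 85 protein-coding plastid entries, and 14 of those not counted here are gene copies that share a probe set with their second copy. Genes were grouped by symbol: 5 psa genes of photosystem I, 15 psb genes of photosystem II, 6 pet genes of the cytochrome b6f complex, 6 atp genes of the ATP synthase, 10 ndh genes of the NADH dehydrogenase-like complex, 4 rpo genes of the plastid RNA polymerase, 8 rps and 7 rpl genes of the small and large ribosomal subunits, 2 ycf genes and 6 others.

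The study compared whole seedlings, 10 days old, after 1 h with 20 nM protease IV, a secreted serine protease purified from the bacterium *Pseudomonas aeruginosa* PA14, with mock-treated seedlings. All seedlings grew in wells of liquid Murashige and Skoog medium that was changed on day 8, and each group had 3 arrays labelled as biological replicates. The sample titles call the mock group a nontreated control, so effects of handling and of the protease cannot be told apart. The labels give no accession or mutant line, nor what the mock wells received, nor whether replicates came from separate plates. The p-values therefore speak only for the spread among these 6 samples, part of which may be technical. Values are log2 levels from Affymetrix Arabidopsis arrays after robust multi-array averaging (RMA). Of 7 green-tissue markers 1 was measured, RCA for Rubisco activase, which averaged 13.94 ± 0.037 in protease IV and 14.07 ± 0.011 in mock seedlings (SD, n = 3 each). The root marker PYK10 averaged 12.46 ± 0.011 in protease IV and 12.63 ± 0.050 in mock seedlings (SD, n = 3 each). The other 2 measured root markers, AT5G66390 and EXPA7, averaged 5.90 ± 0.079 and 5.49 ± 0.089 in protease IV and 5.78 ± 0.040 and 5.39 ± 0.31 in mock seedlings (SD, n = 3 each), so 1 of the 3 was lower and 2 were higher, none past the threshold. The 5 pollen markers averaged 3.30 to 4.44 in protease IV and 3.19 to 4.61 in mock seedlings. In RNA of whole seedlings, fewer cells of a type and less RNA per cell cannot be told apart.

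The plastid genome retains core subunits of the photosynthetic complexes and of the ribosome and polymerase that express them, and the nucleus encodes the remaining subunits. Plastid genes are transcribed in long polycistronic units by a bacterial-type polymerase, built from the rpo products and steered by nuclear sigma factors, and by a phage-type polymerase from the nucleus. Transcript levels in plastids depend strongly on processing and on RNA stability. Targets for this kind of array are commonly primed from poly(A) tails, which plastid transcripts carry mainly as a mark for decay. The sources used here do not name the primer, and how far the levels follow the amount of each transcript was not tested.

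Most plastid genes were bright. The upper quartile of the non-control probe sets lay between 7.89 and 7.95 on the 6 arrays, and 50 of the 69 genes (72.5%) exceeded it on every array, against 16.6% of the other genes. On all 6 arrays 42 of the 69 were also above the 90th percentile (60.9%), against 5.24% of the other genes. None was below the lower quartile (3.97 to 4.05) on all arrays, and ndhF and rpoB were below it on 5 and 4 arrays. Levels of different probe sets also reflect their probes, so they are given here by place on the array and are not ranked as transcript amounts. All 7 rpl genes and 13 of 15 psb genes lay above the upper quartile on every array, as did 3 of 5 psa, 2 of 6 pet, 4 of 6 atp, 6 of 10 ndh, 3 of 4 rpo and 6 of 8 rps genes.

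**Figure D1:**
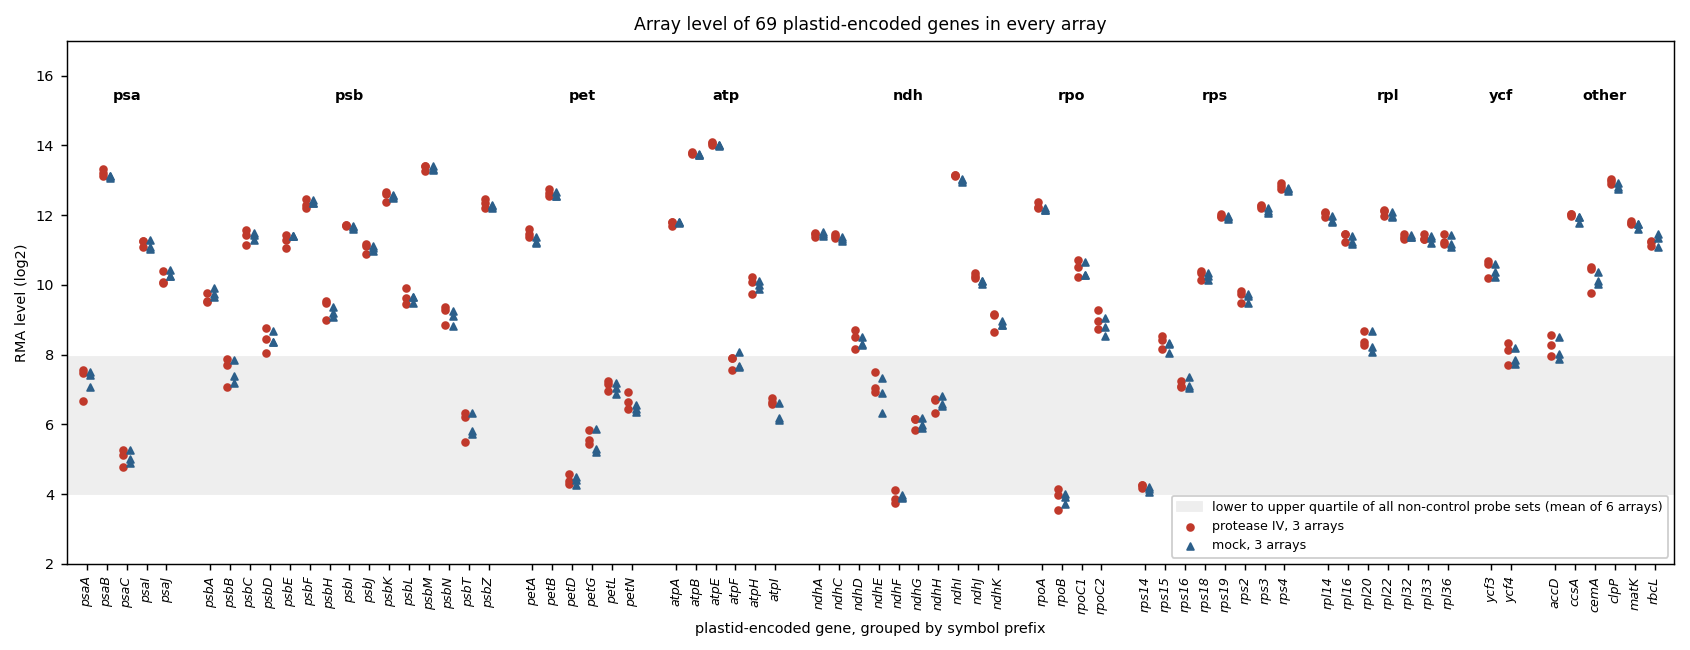
RMA level (log2, vertical axis) of each of the 69 plastid-encoded genes (horizontal axis, by symbol prefix) on every array, with red circles for the 3 protease IV arrays, blue triangles for the 3 mock arrays and grey for the lower to upper quartile of all non-control probe sets. In 50 genes all 6 points lie above the upper quartile, and the red and blue points of a gene mostly intermingle.

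After 1 h of protease IV, 1 plastid gene rose and none fell. That gene was atpI, at a difference of 0.37. By comparison 11.4% of all genes rose and 22.8% fell (limma with Benjamini-Hochberg adjustment over 13356 genes, adjusted p under 0.05). At an unadjusted p under 0.05 limma gave 3 plastid genes higher, petA, ndhJ and atpI, and 0 lower, against 13.3% and 28.6% of all genes. In 5 plastid genes every protease IV value was above every mock value, and in 0 every value was below, against 14.7% and 31.0% of all genes. The 5 were psbI, ndhI, ndhJ, rpoA and ccsA. The differences ran from -0.17 in psbA to 0.37 in atpI, 53 positive and 16 negative, with a median of 0.06 against -0.06 over all genes. Of all 13356 genes, 5039 had positive differences. With 1 array left out the plastid counts ran from 40 positive and 29 negative, without protease IV replicate 1, to 61 and 8, without mock replicate 2.

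Under limma's model these differences were bounded rather closely. Its standard errors ran from 0.069 to 0.22 with a median of 0.098. The 95% interval of the difference lay within 2-fold either way in 69 of 69 genes, and within 0.5 on the log2 scale in 61. The model pulls each gene's variance towards that of all genes, and plastid genes spread more, as given below. Intervals of the widest, such as ndhE (residual SD 0.41), may therefore be too narrow. The intervals also leave out the choice of scaling, and cyclic loess took the median difference from 0.06 to 0.21.

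**Figure D2:**
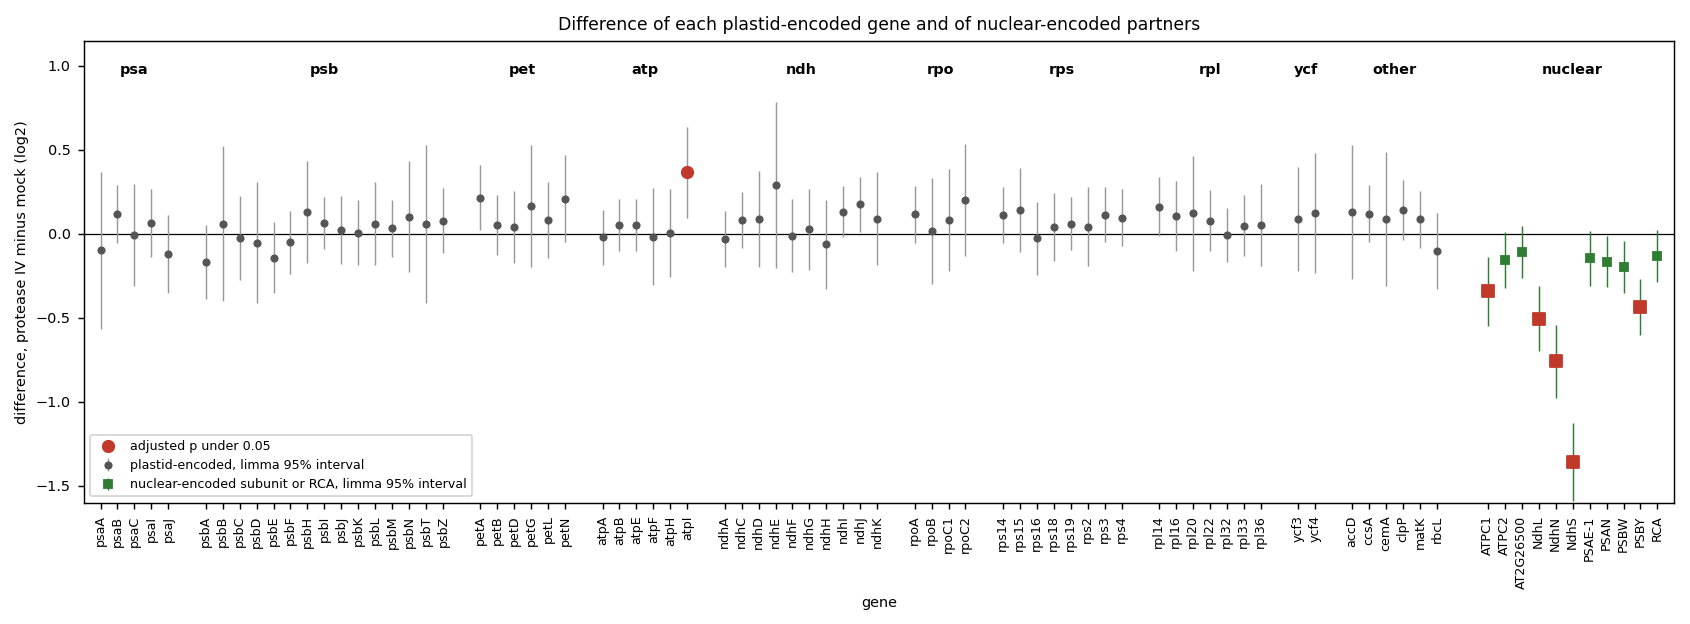
Difference between protease IV and mock (log2, vertical axis) with limma's 95% interval for each of the 69 plastid-encoded genes (circles) and for 11 nuclear-encoded genes of the same complexes or of Rubisco function (squares), with red for an adjusted p under 0.05. The plastid genes sit between -0.17 and 0.37 with atpI alone in red, whereas the 11 nuclear genes are all below 0, down to -1.36 in NdhS.

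In the ATP synthase, atpI, which encodes the membrane subunit that carries protons past the rotor ring, stood at 6.75, 6.65 and 6.60 in protease IV and at 6.17, 6.61 and 6.13 in mock seedlings. Mock replicate 2 was slightly above protease IV replicate 3, so the groups overlapped, and the other mock arrays were lower than all 3 treated ones. The means were 6.67 ± 0.080 and 6.30 ± 0.27 (SD, n = 3 each), a difference of 0.37 (SE 0.12; limma, adjusted p = 0.0391). The call was lost without protease IV replicate 1 (limma, adjusted p = 0.12), replicate 2 (0.0785) or replicate 3 (0.0627), and without replicate 1 (0.142) or replicate 3 (0.139) of the mock group, but not without mock replicate 2 (0.00185). It was also lost with arrays centred on the bacterial spike-in controls (0.0678).

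The other membrane-sector genes atpF and atpH differed by -0.015 and 0.0066. Of the catalytic head, atpA (alpha subunit) had 11.82, 11.79 and 11.67 in protease IV and 11.76, 11.79 and 11.79 in mock seedlings, the lowest difference among the atp genes at -0.020. The beta and epsilon subunit genes atpB and atpE, which share a transcript, differed by 0.052 and 0.051. Their residual SDs within groups, 0.027 and 0.035, were among the smallest of the plastid genes. Within 1 complex, then, 5 genes lay between -0.020 and 0.052, and atpI was at 0.37.

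Photosystem I, which passes electrons from plastocyanin to ferredoxin, gave 2 positive and 3 negative differences with a median of -0.0076. Its core proteins are encoded by the neighbouring genes psaA and psaB. The psaA probe set read 7.56, 7.48 and 6.67 in protease IV and 7.07, 7.42 and 7.51 in mock seedlings, so that protease IV replicate 3 was the lowest of all 6 arrays and the groups overlapped (difference -0.10, SE 0.21; limma, adjusted p = 0.781). The psaB probe set read 13.32, 13.21 and 13.12 in protease IV and 13.05, 13.13 and 13.11 in mock seedlings (difference 0.12, SE 0.078; limma, adjusted p = 0.289), the highest difference in the group. The lowest was in psaJ, a small subunit, at -0.12, and psaC, which holds the terminal iron-sulfur clusters, differed by -0.0076.

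Photosystem II, the water-splitting complex, held the most members and the lowest plastid difference. That was psbA, whose product is the reaction centre protein replaced most often in light. Its levels were 9.77, 9.49 and 9.52 in protease IV and 9.74, 9.91 and 9.65 in mock seedlings. Protease IV replicate 1 lay among the mock values and the other treated arrays lay under all of them (difference -0.17, SE 0.099, 95% interval -0.39 to 0.051; limma, adjusted p = 0.233). The partner reaction centre gene psbD differed by -0.052, and the inner antenna genes psbB and psbC by 0.062 and -0.022.

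The cytochrome subunit genes psbE and psbF differed by -0.14 and -0.049. The largest positive value of this complex was in psbH, a small phosphoprotein, with 9.54, 9.48 and 8.996 in protease IV and 9.09, 9.35 and 9.19 in mock seedlings (difference 0.13, SE 0.14). Here too protease IV replicate 3 was the lowest array, and without it psbH passed at 0.30 (limma, adjusted p = 0.0465). The small subunit psbI had 11.69, 11.71 and 11.73 in protease IV and 11.60, 11.69 and 11.64 in mock seedlings (difference 0.063). Its groups just failed to overlap, with the lowest treated value barely above the highest mock value. Over the 15 genes, 10 differences were positive and 5 negative, with a median of 0.034.

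All 6 genes of the cytochrome b6f complex, which links the photosystems, had positive differences, from 0.043 in petD (subunit IV) to 0.21 in petA, with a median of 0.12. The petD probe set, at a mean level of 4.40, lay near the lower quartile of the arrays, where differences are compressed. Over the 5 pet genes with a mean of at least 5 the median was 0.17. The cytochrome f gene petA stood at 11.60, 11.46 and 11.36 in protease IV and at 11.19, 11.37 and 11.22 in mock seedlings, where the lowest treated array was just under the highest mock array (difference 0.21, SE 0.087; limma, adjusted p = 0.0859). The cytochrome b6 gene petB differed by 0.051, and the small subunits petG, petL and petN by 0.17, 0.084 and 0.21. None passed. Centring on the bacterial controls, which lowers the difference of every gene by the same amount, left 4 positive and 2 negative, with a median of 0.046. Without mock replicate 3 the median was 0.039, with 5 of the 6 positive.

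The plastid NADH dehydrogenase-like complex, which returns electrons to the plastoquinone pool around photosystem I, had 7 positive and 3 negative differences with a median of 0.086. In ndhJ the levels were 10.33, 10.24 and 10.21 in protease IV and 10.03, 10.11 and 10.12 in mock seedlings, without overlap (difference 0.18, SE 0.073; limma, adjusted p = 0.0941). In ndhI they were 13.14, 13.11 and 13.14 in protease IV and 13.002, 13.03 and 12.96 in mock seedlings, again without overlap (difference 0.13, SE 0.069; limma, adjusted p = 0.177). Both genes encode subunits of the electron-transferring arm.

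The largest value of the complex, 0.29 in ndhE, came with the widest spread of any plastid gene. It read 7.49, 6.92 and 7.03 in protease IV and 6.91, 7.33 and 6.33 in mock seedlings (SE 0.22; limma, adjusted p = 0.373). Mock replicate 3 alone was far below the other arrays there. The lowest value was in ndhH, at -0.062, and ndhA, ndhC, ndhD, ndhF, ndhG and ndhK ran from -0.032 to 0.091.

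Nuclear-encoded subunits of the same complexes were read on the same arrays. From lists of 46 such genes, including Rubisco small subunits and activase, 11 were measured. All 11 had lower values in every protease IV array than in any mock array, against 31.0% of all genes, and 5 of the 11 fell, against 22.8% of all genes. The 11 were mostly bright, with a median level of 12.52. The shares of 31.0% and 22.8% are over genes of all levels, and those among genes of like level are not given here. Non-plastid genes above 12 had a median difference of -0.097, those between 8 and 10 one of -0.17 and those below 6 one of -0.018. These sets include those of the 11 that lie at the same levels. The median of the 11 was -0.20, and -0.064 after cyclic loess. There 6 of the 11 stayed without overlap and 1 difference turned positive, and the share of all genes without overlap under that scaling is not given here. NdhS, which docks ferredoxin on the NADH dehydrogenase-like complex, stood at 8.93, 9.27 and 9.33 in protease IV and at 10.53, 10.48 and 10.58 in mock seedlings. It fell by 1.36 (SE 0.10; limma, adjusted p = 2.91e-06).

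NdhN, of the same complex, averaged 8.16 ± 0.18 in protease IV and 8.92 ± 0.059 in mock seedlings (SD, n = 3 each) and fell by 0.76 (limma, adjusted p = 0.000147). NdhL, a membrane subunit, averaged 9.59 ± 0.018 in protease IV and 10.10 ± 0.15 in mock seedlings (SD, n = 3 each) and fell by 0.50 (limma, adjusted p = 0.00123). These 3 measured nuclear subunits of the complex thus fell, while its 10 plastid subunits lay between -0.062 and 0.29 with none past the threshold. The difference between the 2 sets was not tested as such.

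PSBY, a small protein of photosystem II, fell by 0.44 (limma, adjusted p = 0.00113), and ATPC1, the gamma subunit of the ATP synthase, fell by 0.34 (limma, adjusted p = 0.0145). ATPC1 lost its call after cyclic loess (-0.22; limma, adjusted p = 0.106) and without protease IV replicate 1 (0.0550) or 3 (0.0548) or mock replicate 3 (0.0572). The other 6 nuclear genes, PSAE-1, PSAN, PSBW, ATPC2, RCA and AT2G26500 of the cytochrome b6f complex, differed by -0.20 to -0.11 and did not pass. Of 21 nuclear genes for plastid transcription, 1 was measured, the phage-type polymerase AT5G15700, at 4.53 ± 0.18 in protease IV and 4.61 ± 0.039 in mock seedlings (SD, n = 3 each; limma, adjusted p = 0.592). A list of 14 genes for plastid RNA processing had 0 measured and was not analysed here.

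The 4 rpo genes encode the core of the bacterial-type plastid polymerase, and all 4 differences were positive, with a median of 0.10. With the bacterial controls 3 of the 4 were positive, and without protease IV replicate 1 it was 2 of the 4, with a median of 0.013. The alpha subunit gene rpoA, which lies among ribosomal protein genes, had 12.24, 12.38 and 12.21 in protease IV and 12.15, 12.13 and 12.20 in mock seedlings, with no overlap (difference 0.12, SE 0.076; limma, adjusted p = 0.287). The other 3 lie next to each other on the chromosome: rpoB differed by 0.018, rpoC1 by 0.084 and rpoC2 by 0.20. The rpoC2 levels were 9.28, 8.74 and 8.96 in protease IV and 8.78, 9.05 and 8.55 in mock seedlings, with overlap (SE 0.15; limma, adjusted p = 0.364). The rpoB values, 4.16, 3.97 and 3.56 in protease IV and 3.71, 4.01 and 3.92 in mock seedlings, were near the lower quartile of the arrays, where differences are compressed.

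In tobacco, accD and the rpoB, rpoC1 and rpoC2 genes are known to be transcribed by the phage-type polymerase alone. Their median difference was 0.11, and it was 0.051 over 27 psa, psb, pet and rbcL genes, for which the bacterial-type polymerase is the main enzyme. Without protease IV replicate 1 these medians were -0.025 and -0.0058, and without mock replicate 1 the first was 0.011. Without mock replicate 3 the second was -0.0078, and with the bacterial controls it was -0.028. Both ranges, 0.018 to 0.20 and -0.17 to 0.21, cover mostly the same values, and 0 of the 4 and 0 of the 27 passed in limma, with 0 and 1 at an unadjusted p under 0.05.

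Ribosomal protein genes lay close together. The 8 rps genes ran from -0.025 in rps16, whose levels were 7.23, 7.08 and 7.11 in protease IV and 7.09, 7.37 and 7.03 in mock seedlings, to 0.14 in rps15, at 8.52, 8.41 and 8.17 in protease IV and 8.03, 8.34 and 8.30 in mock seedlings. The 7 rpl genes ran from -0.0059 in rpl32 to 0.16 in rpl14. The rpl14 levels were 11.96, 12.05 and 12.10 in protease IV and 11.84, 11.98 and 11.81 in mock seedlings, with an overlap between protease IV replicate 1 and mock replicate 2 (SE 0.079; limma, adjusted p = 0.154). The medians were 0.079 and 0.078, with 13 of the 15 differences positive and limma called 0 of the 15 (0 at an unadjusted p under 0.05). Centred on the bacterial controls, 4 of the 8 rps and 3 of the 7 rpl differences were positive, with medians of 0.00020 and -0.0013. Leaving out 1 array took the rpl median to between 0.023, without protease IV replicate 1, and 0.15, without mock replicate 2, and the rps median to between 0.047, without mock replicate 1, and 0.10, without protease IV replicate 2.

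The photosystem I assembly genes ycf3 and ycf4 differed by 0.091 and 0.13. In ycf4 the levels were 8.32, 8.13 and 7.70 in protease IV and 7.72, 8.19 and 7.86 in mock seedlings, and the groups overlapped throughout. Among the remaining genes, rbcL, the large subunit of Rubisco, had the only negative difference, with 11.22, 11.25 and 11.12 in protease IV and 11.35, 11.46 and 11.08 in mock seedlings (difference -0.10, SE 0.10; limma, adjusted p = 0.517). The highest was in clpP, a subunit of the plastid Clp protease, with 12.97, 13.04 and 12.89 in protease IV and 12.74, 12.92 and 12.81 in mock seedlings (difference 0.14, SE 0.081; limma, adjusted p = 0.218).

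The accD gene, for a subunit of the acetyl-CoA carboxylase of fatty acid synthesis, had 8.56, 8.28 and 7.95 in protease IV and 7.86, 8.51 and 8.02 in mock seedlings, and its difference of 0.13 was smaller than its SE of 0.18. The intron maturase gene matK differed by 0.088, the envelope protein gene cemA by 0.087, and ccsA, of cytochrome c assembly, by 0.12 with no overlap between the groups.

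The plastid genes varied together from array to array, in both groups. In mock seedlings replicate 2 was above both other mock arrays in 50 of 69 plastid genes (72.5%), against 30.4% of the other genes. Among treated seedlings replicate 1 was the highest in 40 (58.0%), against 31.2% of the other genes, and replicate 3 the lowest in 42 (60.9%), against 37.7%. The mean deviation of the 69 genes from their own means was 0.15, 0.043 and -0.094 in protease IV replicates 1, 2 and 3, and -0.095, 0.091 and -0.091 in mock replicates 1, 2 and 3. The arrays of 1 group thus differed from each other by more than the median difference between the groups. Without protease IV replicate 1 the median difference was -0.051 over the psb, -0.0061 over the atp and -0.011 over the ndh genes. That of the psb genes was also negative without mock replicate 3, at -0.014, and that of the psa genes was 0.13 without protease IV replicate 3 and 0.10 without mock replicate 2.

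**Figure D3:**
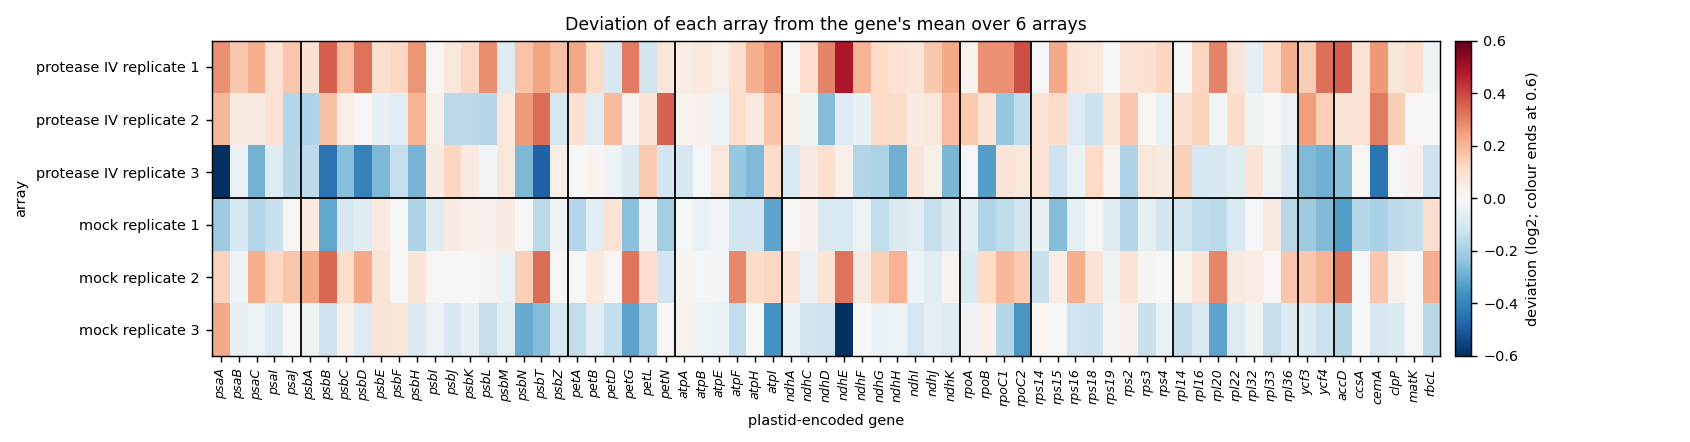
Deviation of each array (rows) from the gene's mean over the 6 arrays (colour, log2) for the 69 plastid-encoded genes (columns, by complex, separated by black lines). Rows of protease IV replicate 1 and mock replicate 2 are mostly red and those of mock replicates 1 and 3 mostly blue, while protease IV replicate 3 is blue in many psa, psb and ycf genes and pale or red in others.

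The pattern differed in depth between complexes. In protease IV replicate 3 the mean deviation was -0.24 over the psa genes, -0.16 over the psb genes and -0.28 over the ycf genes, and -0.026 over the rpl and 0.00080 over the rps genes. After the group means were removed, the median correlation between pairs of plastid genes over the 6 arrays was 0.465, with 1781 of 2346 pairs positive (75.9%). For the 64 pairs of neighbouring genes it was 0.482, and 51 were positive (79.7%), which is close to the value for all pairs. Within the atpI, atpH, atpF and atpA cluster it was 0.723 over 6 pairs, and within the psbB, psbT, psbN, psbH, petB and petD cluster 0.556 over 15. It was 0.55 within psbE, psbF, psbL and psbJ and 0.482 within psbD, psbC and psbZ. Below the value for all pairs were the clusters of rpoB, rpoC1 and rpoC2 (0.363), of ndhC, ndhK and ndhJ (-0.010) and of psaA, psaB and rps14 (-0.29), each over 3 pairs. All these correlations are descriptions over 6 arrays that all genes share, and pairs of other genes were not computed beside them. The 3-prime minus 5-prime difference of the actin controls was 2.29, 2.36 and 2.87 in protease IV replicates 1, 2 and 3 and 2.47, 2.46 and 2.30 in mock replicates 1, 2 and 3 (exact permutation p = 0.9). It was highest in the treated array where most plastid genes were lowest. In mock seedlings it was highest in replicate 1 and lowest in replicate 3, where the mean plastid deviations were -0.095 and -0.091. The 3-prime minus 5-prime difference of GAPDH averaged 0.49 ± 0.086 in protease IV and 0.37 ± 0.022 in mock seedlings (SD, n = 3 each), and the groups did not overlap (exact permutation p = 0.1, which no 3 against 3 design can go below), and for ubiquitin the exact permutation p was 1.0. The part of RNA quality in the plastid values was not tested.

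Replicates of plastid genes also spread more widely than those of other genes of like level. The residual SD within groups had a median of 0.14 over the 69 genes and 0.11 over the other genes, although the plastid genes were brighter. Between levels of 8 and 10 the medians were 0.22 over 12 plastid genes and 0.079 over 2010 others, and between 10 and 12 they were 0.12 over 25 and 0.072 over 456. Above 12 they were 0.074 over 14 and 0.055 over 77. The widest were ndhE (0.41), psbT (0.39), psaA (0.39) and psbB (0.38), and the largest range over the 6 arrays was 1.16, in ndhE, whereas in 47 genes the 6 arrays lay within 0.5 of each other.

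**Figure D4:**
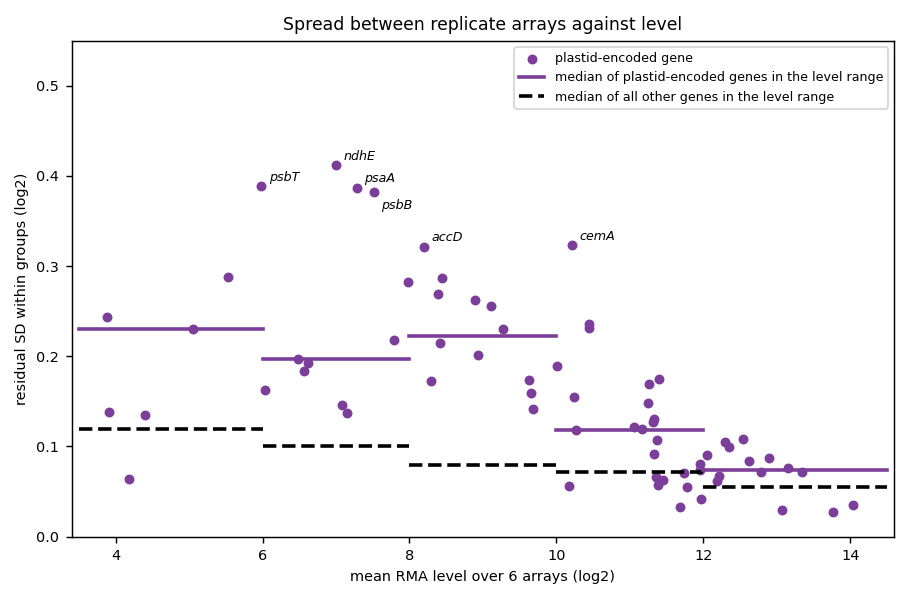
Residual SD between replicate arrays within groups (log2, vertical axis) against mean RMA level over the 6 arrays (log2, horizontal axis) for the 69 plastid-encoded genes, with purple lines for their median and dashed black lines for the median of all other genes in each level range. Between 8 and 10 the plastid median is 0.22 and that of other genes 0.079.

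The same level ranges set the small positive shift beside genes of similar brightness. Other genes between levels of 8 and 10 had a median difference of -0.17 and those between 10 and 12 one of -0.15, whereas the plastid genes in these ranges had 0.097 and 0.061. Cyclic loess, which levels such a trend with brightness between arrays, gave positive differences in all 69 plastid genes, with a median of 0.21 against 0.0069 over all genes. It shifted the differences of bright genes by similar amounts, as in rpl32 from -0.0059 to 0.14 and in atpA from -0.020 to 0.12. The 69 signs are therefore not separate results per gene. After cyclic loess 13 of the 69 rose and 0 fell, against 15.4% and 11.3% of all genes. The 13 were psaB, psbI, petA, petN, atpI, ndhC, ndhI, ndhJ, rpoA, rps3, rpl14, clpP and ccsA. Centred on the bacterial controls, 31 differences were positive and 38 negative, and 0 genes passed. The medians of the psb (-0.045), atp (-0.050) and rpl genes (-0.0013) were then negative. So the sign of the median shift depended on the scaling. The plastid median exceeded that of all genes by 0.12 as deposited and by 0.21 after cyclic loess, and by 0.072 without protease IV replicate 1 to 0.18 without mock replicate 2. Centring moves all genes alike and cannot change this gap.

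**Figure D5:**
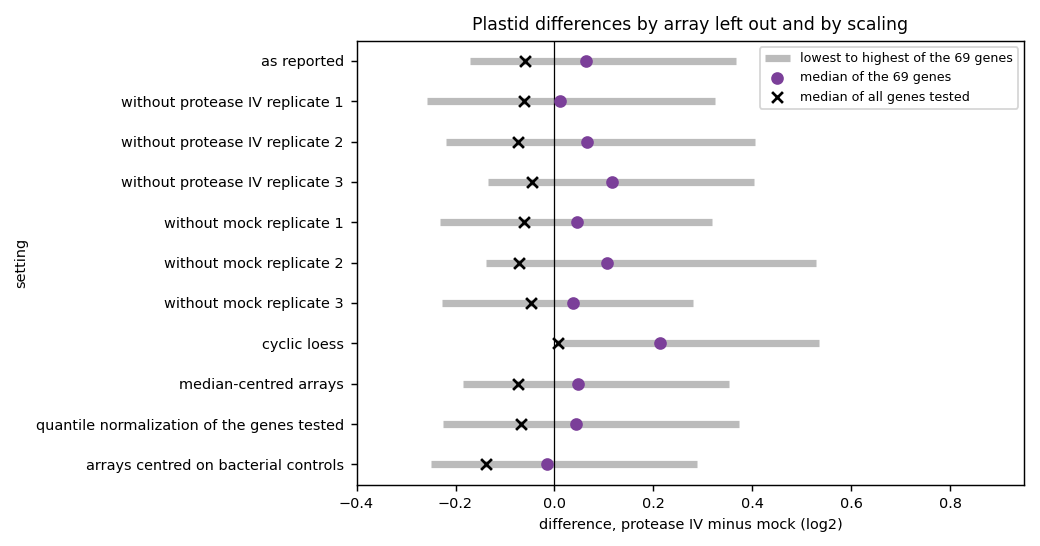
Difference between protease IV and mock (log2, horizontal axis) under each scaling and with each array left out (vertical axis), with grey bars from the lowest to the highest of the 69 plastid-encoded genes, purple points for their median and crosses for the median of all genes tested. The plastid median runs from -0.016 with arrays centred on the bacterial controls to 0.21 after cyclic loess. The gap to the cross is 0.12 as deposited, fixed under centring, and 0.072 without protease IV replicate 1.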

How the data were processed

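The authors deposited log2 values per probe set, made by RMA (affy, version 1.36.1) per the submitters' processing notes, with settings that the sources used here do not give. RMA quantile-normalizes arrays, so a change in total mRNA cannot be read from the values. Of 22810 probe sets, 64 were controls. GEO's platform annotation named 1 gene for 13513, several for 503 and none for 8730. Per gene, the probe set with the highest mean was kept, which left 13356 genes. Plastid genes were found through their gene IDs in RefSeq (TAIR10.1), each with 1 probe set.

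Differences, protease IV minus mock, were fitted with limma 3.58.1 in R 4.3.3 (lmFit, eBayes) over all genes and 6 arrays with no covariates, two-sided, Benjamini-Hochberg adjusted, threshold 0.05. The script was tested on simulated data. Alternatives were other scalings, filters and variance settings, the replicate number as a block, and each array left out. For the RNA-quality controls an exact permutation test, two-sided, was used. Named were called genes, the highest and lowest difference per complex, psbA, rbcL, psaA, psaB, accD, matK and clpP, and up to 3 called genes per nuclear list; other genes were chosen after their values were seen. Members and lists were chosen with earlier results of these data known. Arrays carry no counts, and their number limits precision.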

Additional observations from a re-analysis of the deposited data

How the results depend on the processing

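In 17 alternatives, 1 of them (probe sets naming several plastid genes added) chosen after seeing the data, 0 plastid genes fell. The count that rose, 1 as reported, was 0 under centring on the bacterial controls, 3 among genes with a mean of at least 5, 4 with a variance trend, 13 after cyclic loess and 0 to 2 with 1 array left out (2 without protease IV replicate 3, psbH and ndhK, and 2 without mock replicate 2, atpI and petG). atpI passed in 11 of the 17 and was higher in all of them. Alternatives that changed only the block, the filter, the variance setting or the probe sets fitted refitted the same atpI values, with the same difference of 0.37. They are therefore no separate support for the call. With 1 array left out atpI passed only without mock replicate 2. The groups did not overlap in 5 genes higher and 0 lower as reported. This became 26 higher after cyclic loess, 8 higher with median-centred arrays, 3 lower after quantile normalization of the genes tested, 0 higher and 2 lower with the bacterial controls, and 6 to 19 higher and 0 to 5 lower with 1 array left out, where a smaller group overlaps less often by construction. Apart from the calls after cyclic loess, the shares of all genes under these alternatives are not given here. The counts of genes called or without overlap therefore cannot be told apart from shifts over all genes. The median of the 69 genes was 0.21 after cyclic loess, -0.016 with the bacterial controls and 0.010 to 0.12 with 1 array left out. For the other changes the cause was not tested. NdhS, NdhN, NdhL and PSBY fell in all 17. The replicate block left the count at 1. Same-numbered arrays did not deviate together over all genes (correlations 0.038, -0.101 and -0.176). Over the plastid genes these correlations were -0.5, 0.026 and -0.044, and those of arrays with unlike numbers ran from -0.467 to 0.691. With 3 arrays per group, such values cannot decide whether the numbers pair the samples. Signals near background, such as ndhF and rpoB, are compressed.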

Other observations

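A further 8 probe sets were annotated to more than 1 plastid entry, each to both copies of a duplicated gene, and are not counted above because each names several entries. Their levels ran from 3.92 to 13.28 on the log2 scale. Their differences, protease IV minus mock, ran from -0.058 to 0.15 with a median of 0.026, 5 positive and 3 negative. In limma 0 of the 8 passed and 0 had an unadjusted p under 0.05. In 1 of them every protease IV value was above every mock value, against 14.7% of all genes.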
